A study of Homo sapiens with 18 samples.

Results

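The genes described here had reads in every RNA-Seq library of cells incubated with triptolide (TPL) and in no library of cells incubated with DMSO. They were chosen from the measured values. A row of the gene tables was a member when it had an FPKM (fragments per kilobase of transcript, scaled to the depth of the library) above 0 in all 4 TPL libraries, was absent or at 0 in all 4 DMSO libraries, and had a mean expected count (the reads assigned to the row) of at least 3 over the TPL libraries. Symbols with -AS, LINC or ZNF and symbols that join the names of 2 genes were left out. This gave 202 members among 23604 rows listed in at least 1 library. Because the contrast of TPL with DMSO made the list, values of that contrast are a description here and carry no test.

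The cells were MCF10A-Er-Src, a single human breast epithelial line that carries a v-Src kinase fused to an estrogen receptor domain, so that tamoxifen switches the kinase on. Cells without tamoxifen are called NT and those transformed with it TAM. Both were kept for 4 h with DMSO (groups NT and TAM) or with TPL at the dose labelled TPL-125nM (groups NT + TPL and TAM + TPL). All 4 groups carry the fusion, and each had 2 RNA-Seq libraries from biological replicates. RNAPII ChIP-Seq of the same 4 conditions was held as 1 list of peaks per condition.

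TPL binds XPB, the translocase of the general transcription factor TFIIH, which opens promoter DNA so that RNA polymerase II (RNAPII) can start a transcript. Blocking this step lowers the making of most mRNAs, and short-lived mRNAs are lost first. RNA-Seq values are relative to the rest of the library. A fall shared by every mRNA is therefore not visible in them, and more of an mRNA cannot be told apart from less of the others.

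More rows had this pattern with TPL than with DMSO. Before any symbol was left out, 230 rows had it, which is 0.974% of all rows. With DMSO and TPL exchanged, 19 rows had it, which is 0.0805%. Library totals were between 8099426 and 8349448 counts with DMSO and between 7461309 and 8141162 with TPL. Of the 230 rows, 10 were left out for -AS, 13 for LINC, 4 for ZNF and 1 for a joined symbol. The excess became smaller as the minimum count rose. At a mean count of at least 10, 77 rows had the TPL pattern and 13 the DMSO pattern. At a mean of at least 20 there were 37 and 10, and at 50 there were 7 and 6. All of these 7 TPL rows but CKM and ADRA2A were 1 entry of a gene that was also read with DMSO. Of the 19 DMSO-only rows, 11 were 1 entry of a gene that was also read with TPL.

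**Figure D1:**
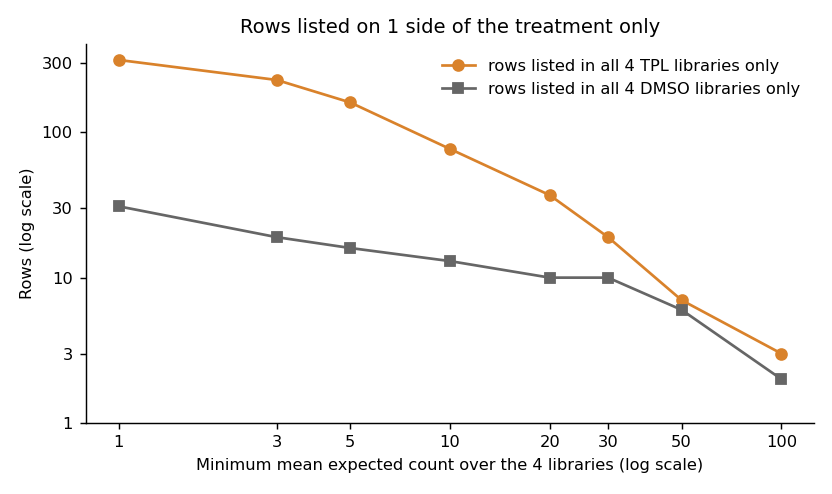
Number of rows (y axis, log scale) listed in all 4 TPL libraries and no DMSO library (orange), or in all 4 DMSO libraries and no TPL library (grey), at or above each minimum mean expected count (x axis, log scale), with no symbol left out. The curves are 230 and 19 rows at a minimum of 3, 37 and 10 rows at a minimum of 20, and 7 and 6 rows at a minimum of 50.

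Most members were whole genes, but some were parts of genes. The tables list several rows for some genes, by gene ID and by RefSeq transcript, and share the reads among them. Of the 202 members, 185 were whole genes, with no other row of the symbol read in DMSO, and 17 were 1 entry of a gene that DMSO cells also expressed. By annotation 183 members were protein-coding, 9 were transcribed pseudogenes, 8 were lncRNAs, and 2 matched no symbol. Levels were low. The median member had a mean of 7 counts and 0.488 FPKM over the TPL libraries, 72 members had a mean of at least 10 counts, and 58 had a mean of at least 1 FPKM. All members together held between 318 and 385 CPM, the share of all counts scaled to a common depth, in the 4 TPL libraries. At the threshold, GPHB5 (4, 4, 2 and 2 counts), IGSF22 (3, 5, 2 and 2) and INSM2 (4, 1, 5 and 2) lay just inside with a mean of 3. The 1 listed transcript of SLC22A11 (3, 3.18, 2 and 3 counts, mean 2.795), the unnamed row 286223 (3.03, 1, 5.12 and 2.03 counts, mean 2.795) and FNDC5 (3, 4, 1 and 3 counts, mean 2.75) lay just outside. These and all sets of 4 values below are given in the order NT + TPL 1 and 2, TAM + TPL 1 and 2.

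CKM, the creatine kinase of skeletal and cardiac muscle, had the highest level of any member. Its expected counts were 164, 179, 80 and 48, against 0 in each DMSO library, and its FPKM was 12.85, 14.22, 6.43 and 3.54. Both NT + TPL libraries lay above both TAM + TPL libraries. A count of 0 allows up to 3 counts per library, so the mean scaled level of CKM was at least 60.6-fold higher in NT + TPL than in NT cells and at least 22.3-fold higher in TAM + TPL than in TAM cells. These floors and bounds cover counting error only. The other muscle markers differed. MYOD1, the master factor of the muscle lineage, was at 0 in all 8 libraries, MYOG and DES stayed at or below 0.34 FPKM, MYH3, the embryonic myosin heavy chain, was at 0.12 FPKM in each DMSO library and at 0.42, 1.14, 1.24 and 0.9 with TPL, and of the 6 muscle markers ACTA1 alone, apart from CKM, reached more than 2 FPKM, at 8.33, 17.11, 12.02 and 9.79 FPKM with TPL and between 0.32 and 0.75 with DMSO.

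ADRA2A, the alpha-2A adrenergic receptor, a receptor coupled to inhibitory G proteins, had nearly the same level in all 4 TPL libraries. Its counts were 88.99, 86, 109 and 89, and its FPKM 2.95, 2.89, 3.71 and 2.78. The ranges of the 2 TPL groups overlapped. The level was at least 30.9-fold above the floor in NT and at least 34.3-fold in TAM cells. CD79B, a signalling chain of the B cell receptor, had 43, 73, 35 and 33 counts and 4.35, 7.74, 3.99 and 3.14 FPKM, so both NT + TPL libraries were above both TAM + TPL libraries. DNAJB5-DT, an lncRNA that starts divergently from the gene of a heat shock protein cochaperone, had 28, 36, 52 and 43 counts and 4.92, 6.41, 9.37 and 7.11 FPKM. Here the TAM + TPL libraries were the higher pair.

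INSL4, GH1, NPPC and RAET1L were also among the 12 whole-gene members highest in FPKM. INSL4, an insulin-like peptide of the placenta, was at 6.82, 4.68, 5.41 and 3.31 FPKM. GH1, pituitary growth hormone, was at 2.16, 4.63, 4.26 and 1.70 FPKM. NPPC, the precursor of C-type natriuretic peptide, was at 2.59, 2.62, 2.47 and 2.43 FPKM, from 15, 15, 14 and 15 counts. NPPC thus varied little over the 4 libraries, while the replicates of GH1 lay further apart than the means of its groups. RAET1L, a ligand of the NKG2D receptor of natural killer cells, was at 3.86, 4.59, 1.40 and 1.16 FPKM, higher in both NT + TPL libraries.

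**Figure D2:**
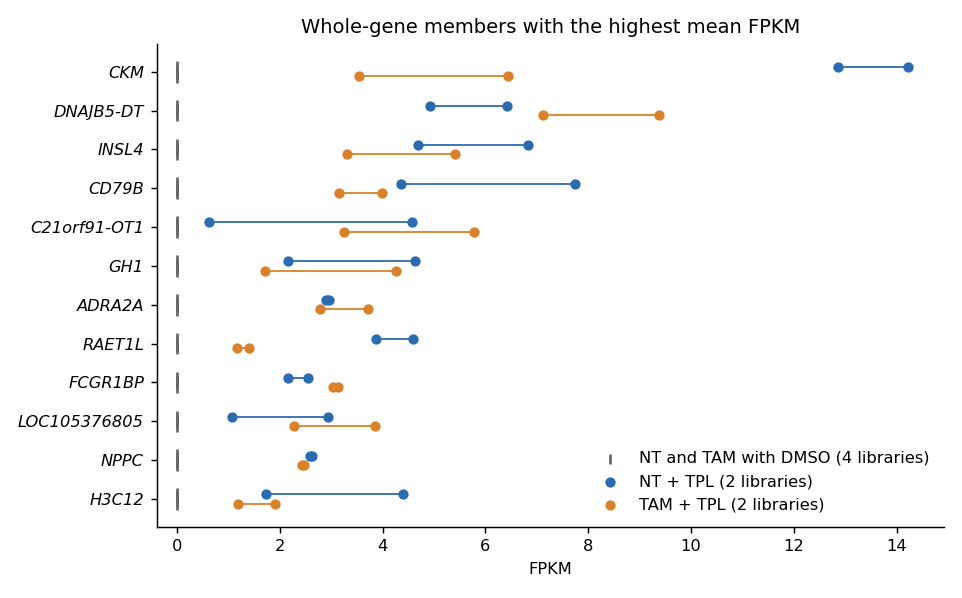
FPKM (x axis) of the 12 whole-gene members with the highest mean FPKM, 1 row per gene, with each library as a point and a line joining the 2 replicates of a group. All DMSO libraries are at 0 (grey ticks), CKM reaches 14.22 in NT + TPL (blue), and the 2 TPL groups overlap for ADRA2A, INSL4 and GH1.

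Other members with many reads were regulators and receptors of unlike tissues. MKX, a homeobox factor of tendon, had 40, 33, 52 and 38 counts, and DACT1, an adaptor of Wnt signalling, had 38, 40, 37 and 29. MRC1, the mannose receptor of macrophages, had 17, 44, 47 and 41 counts, and CDKL2, a kinase related to the cyclin-dependent kinases, had 29, 30, 21 and 44. PRR29, of which no role is given here, had 34, 48, 43 and 22 counts. In each of these 5 genes the FPKM ranges of the TPL groups overlapped, and each had bounds of at least 10-fold in both kinds of cell, as did 18 members in all. Among the 18 were the entries of ABHD18, ARID5A, C3orf33, COX20, GLT8D2, HAPLN3, RABL2A and SEPTIN11, genes also read in DMSO. For these the bound covers the row and not the gene, whose summed counts had TPL to DMSO ratios from 0.516 (SEPTIN11) to 14.1 (HAPLN3). FCGR1BP (30.84, 25.76, 37.72 and 39.83 counts) and FCGR1A (47.16, 21.31, 36.22 and 17.17 counts) are near-identical copies of the high-affinity Fc gamma receptor gene, so the split of reads between them is uncertain. The same holds for GH1 and GH2. Counts were whole to within 0.005 in all 4 TPL libraries for 155 members, and the other 47 had a fractional count in at least 1 library, which RSEM gives to reads that also match another row.

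Promoters of 4 of these genes, whose levels lead the description above, are shown with their position in GRCh38.p14 (RefSeq). Capitals mark matches on either strand to 6 motifs, which were the TATA box TATAAA, the CCAAT box, the GC box GGGCGG, the E-box CACGTG, the AP-1 motif TGACTCA and the cyclic AMP response motif TGACGTCA. Each sequence runs from 250 bases before to 50 after the start. CKM lies at chr19:45322826-45323125 (minus strand), ADRA2A at chr10:111076779-111077078 (plus), INSL4 at chr9:5231169-5231468 (plus) and NPPC at chr2:231926347-231926646 (minus).
CKM: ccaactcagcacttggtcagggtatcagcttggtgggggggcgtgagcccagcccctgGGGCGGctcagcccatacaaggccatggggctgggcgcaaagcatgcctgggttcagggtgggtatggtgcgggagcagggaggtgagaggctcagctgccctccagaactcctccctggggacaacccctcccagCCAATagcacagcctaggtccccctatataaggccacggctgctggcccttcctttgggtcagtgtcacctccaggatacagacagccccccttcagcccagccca
ADRA2A: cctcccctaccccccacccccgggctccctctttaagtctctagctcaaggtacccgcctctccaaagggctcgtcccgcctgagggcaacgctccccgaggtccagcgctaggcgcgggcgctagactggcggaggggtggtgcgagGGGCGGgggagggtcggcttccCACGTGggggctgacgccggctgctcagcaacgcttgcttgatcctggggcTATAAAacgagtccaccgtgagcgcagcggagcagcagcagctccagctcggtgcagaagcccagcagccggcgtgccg
INSL4: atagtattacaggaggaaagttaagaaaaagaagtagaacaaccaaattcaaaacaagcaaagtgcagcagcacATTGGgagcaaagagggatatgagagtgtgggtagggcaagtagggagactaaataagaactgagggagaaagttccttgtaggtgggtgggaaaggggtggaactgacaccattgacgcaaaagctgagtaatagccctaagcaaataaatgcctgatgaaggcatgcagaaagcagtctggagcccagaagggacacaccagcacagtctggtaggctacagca
NPPC: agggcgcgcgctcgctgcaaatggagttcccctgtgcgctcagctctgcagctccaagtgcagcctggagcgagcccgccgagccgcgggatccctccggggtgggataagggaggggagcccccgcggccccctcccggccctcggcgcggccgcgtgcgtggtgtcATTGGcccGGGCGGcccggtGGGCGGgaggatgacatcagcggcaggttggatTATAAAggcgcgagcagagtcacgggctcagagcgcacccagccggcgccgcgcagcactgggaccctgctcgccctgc

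The 4 promoters were unlike each other. ADRA2A and NPPC had TATAAA with its first base at -29, which 11.5% of all 35116 promoters in the table hold anywhere in the window, and they had 26 and 34 CpG dinucleotides against a median of 14 over all promoters. CKM had CCAAT at -56 and GGGCGG at -192 and 5 CpG. Only exact matches were marked, so the similar stretch tatataag in the CKM sequence carries no capitals, and its lack of TATAAA does not show that it lacks a TATA box. INSL4 had CCAAT on the other strand at -176 and 1 CpG. Of all promoters, 34.6% hold CCAAT, 45% GGGCGG, 7.26% CACGTG, 4.95% TGACTCA and 1.85% TGACGTCA. Of the members, 135 were matched to a promoter, which is 66.8%, too few for a share of motifs over the members.

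The 17 members that were 1 entry of a gene read in DMSO included some of the highest counts, and the sum over all rows of the gene was not absent with DMSO. The entry of SEPTIN11, a cytoskeletal GTPase, had 78.50, 72.99, 165.95 and 102.22 counts, while all rows of SEPTIN11 together had between 1047.72 and 1763.20 counts with DMSO and between 512.36 and 729.51 with TPL. The entry of ABHD18 had 76.74, 71.34, 118.78 and 152.68 counts. Summed over its rows, ABHD18 had 219.58, 212.47, 239.09 and 253.67 counts in NT and TAM libraries and 208.45, 263.28, 265.64 and 320.01 with TPL, a ratio of scaled counts of 1.22. Another row of ABHD18 moved between 0 and 106.43 counts among replicates, so the split of its reads among rows differed between replicates. MACIR and ARID5A each had 1 row in the TPL-only list and another in the DMSO-only list, and their sums changed by ratios of 0.239 and 1.40.

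In 7 of these genes (HAPLN3, CLEC3B, PLA2G12B, DNAJB4, RABL2A, C3orf33 and ARL10) the counts summed over all rows were higher in every TPL library than in every DMSO library, and in the first 3 the ratio of scaled counts was above 10. HAPLN3, a link protein of the hyaluronan matrix, had 24, 34, 8 and 5 counts in the NT and TAM libraries and 233, 535, 82 and 89 with TPL, a ratio of scaled counts of 14.1, and its entry had 105.05, 137.78, 30.01 and 45.02. CLEC3B, tetranectin, had 0, 3, 0 and 1 counts with DMSO and 14, 28, 22 and 12 with TPL. PLA2G12B, a secreted phospholipase A2 homologue, had a single count over the 4 DMSO libraries and 52, 58, 92 and 74 with TPL. For the rest the ratios of the sums lay between 0.239 and 3.09.

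The members were also counted in lists of gene families, which hold only part of them. Over the rows kept by symbol, 0.965% were members, and families chosen by symbol are given beside that share. Of 77 histone rows, 4 were members (5.19%), namely H3C12 (6, 15, 4 and 7 counts), H2BC14 (8, 4, 3 and 11.87), H4C8 (13, 4, 5 and 1) and H2BC15 (3.67, 4.06, 3.97 and 3.9). All 4 are replication-dependent histone genes, whose mRNAs normally lack a poly-A tail. Of 97 meiosis and germ line rows, 4 were members (4.12%), namely TEX46, MAGEA8, HORMAD2 and SPATA32, each with a mean of at most 6.75 counts.

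Genes of excitable cells and of receptors were also present. The ion channel list had 6 members of 155 rows (3.87%), among them the calcium channel subunits CACNA1B (16, 5, 15 and 7 counts) and CACNA1G (12, 6, 4 and 4) and the cation channel TRPC7 (3, 10, 13 and 3). The highest count of the list belonged to TRPC5OS, which the symbol pattern caught and which is not a channel subunit. The neuron and synapse list had 3 of 110 (2.73%), which were CPLX4, CHRNA4 and GRM8. The G protein-coupled receptor list had 7 of 253 (2.77%). After ADRA2A its highest were the olfactory receptor OR3A3 (14, 16, 16 and 12 counts), the muscarinic receptor CHRM5 (11, 11, 12 and 23) and the olfactory receptor OR1E2 (17.57, 16, 13.41 and 3.96).

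The cilium and sperm flagellum list had 4 of 136 (2.94%). Its members were HYDIN (26.62, 14.30, 31.63 and 19.76 counts), a protein of the axonemal central pair with a near-identical copy in the genome, DRC1 (14, 25, 30 and 13), a subunit of the nexin-dynein regulatory complex, CFAP141 (5, 6, 6 and 6) and ROPN1L (4, 1, 4 and 4). The list of P450 enzymes and drug transferases had 3 of 105 (2.86%), among them CYP4F22 (4, 2, 10 and 7 counts), a fatty acid hydroxylase of the skin, and GSTM5 (4.22, 10.26, 3.13 and 4.27), a glutathione transferase. The list of blood cell surface proteins and cytokine receptors had 6 of 226 (2.65%), and striated muscle had CKM alone of 38 (2.63%).

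Several lists were at or near the share over all rows. Solute carriers had 6 of 401 (1.5%), with the dopamine transporter SLC6A3 (6, 11, 13 and 8 counts) and the nucleoside transporter SLC28A1 (13, 3, 13 and 8) first, then SLC9C2 and SLC22A12. Keratins had the pseudogene KRT17P5 of 57 (1.75%), signalling kinases and phosphatases had CDKL2 and STK33 of 210 (0.952%), coiled-coil domain genes had CCDC89 alone (0.800%), and uncharacterized symbols had 7 of 947 (0.739%), led by C3orf33, LOC101929439, C21orf91-OT1 and LOC105376805. Small RNA genes had 0 of 736 and the list of homeobox, forkhead and related factors, which takes only some symbol families, had 0 of 157. The homeobox genes MKX and OTP (7, 12, 6 and 6 counts) are members that its symbols do not cover. The shares were not tested.

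In the wider lists few rows were called with TPL. Rows were called where edgeR's quasi-likelihood test, run on 16948 rows, gave an adjusted p no higher than 0.001 together with 1.2 or more on the log2 scale. In NT cells 1.22% of rows were called higher with TPL and in TAM cells 0.844%. Of the members, 87 passed the filter on low counts, through the TPL libraries alone, and since the rule used this contrast their calls, 2 in NT cells and 1 in TAM cells, are no test of them. Of 84 cilium rows tested, 5 were called higher in NT and 2 in TAM cells and 1 lower in each, of 24 striated muscle rows 2 were called higher in each and 0 lower, and of 36 histone rows 1 was called higher and 1 lower in NT cells and 0 higher and 1 lower in TAM cells. Of the members of these lists, CKM, HYDIN and DRC1 are among the rows tested. CFAP141, ROPN1L and the histone members H3C12, H2BC14, H4C8 and H2BC15 did not pass the filter, so their values are not included. Median log2 fold changes in NT and TAM cells were 0.93 and 0.69 for the cilium list, 1.68 and 2.90 for striated muscle and 1.21 and 0.89 for histones, beside 0.09 and 0.05 over all rows tested. In the other lists at most 5 rows were called higher in either kind of cell, and up to 14 lower. For keratins the median log2 fold changes in NT and TAM cells were -1.13 and -0.75, with 3 and 2 rows called lower and 0 higher. For homeobox and forkhead factors they were -0.62 and -0.7, with 7 and 5 rows lower and 1 and 0 higher. Medians were also under 0 for small RNA genes and for signalling kinases and phosphatases, and above 0 for the rest.

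The choice of members did not contrast TAM + TPL with NT + TPL, but it required reads in all 4 of these libraries. A gene read in 1 kind of TPL cell only could not be a member, so the rule itself limited how far the groups could differ. Most members also had few reads, so the shares over all rows are a background and not a like comparison. Between TAM + TPL and NT + TPL, edgeR called 0 of the 87 members tested, and DESeq2 also called 0. Over all rows 0.360% were called higher in TAM + TPL and 0.236% lower. At an unadjusted p under 0.05 there was 1 member higher and 4 lower, 5.75% of those tested, beside 21.3% of all rows. The median log2 difference of the members tested was 0.06, and 68 of 87 lay within 1 of 0 in either direction. Both TAM + TPL libraries lay above both NT + TPL libraries in 18 members (23.2% of all rows) and below in 21 (25.0% of all rows), while 48 overlapped. The other 115 members had too few reads to be tested. The biological coefficient of variation of the fit was 0.315, so with 2 libraries a group small differences were not detectable at this depth.

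The 5 members with the smallest p were the entry of HAPLN3, the entry of KPNA2, CKM, COL21A1 and the entry of ABHD18. HAPLN3 had a log2 difference of -1.77 (SE 0.410, edgeR adjusted p = 0.0799) and was lower in both TAM + TPL libraries. CKM had a log2 difference of -1.47 (SE 0.406, edgeR adjusted p = 0.121). The entry of KPNA2, an importin that carries proteins into the nucleus, had 58.44, 31.65, 4.73 and 9.15 counts and a log2 difference of -2.72 (SE 0.686, edgeR adjusted p = 0.0971). Summed over all its rows, KPNA2 went the other way, with 679.79 and 681.78 counts in NT + TPL and 974.23 and 1118.11 in TAM + TPL. COL21A1, a fibril-associated collagen that is a member by 1 RefSeq transcript, had 38.79, 29.21, 0.50 and 3.93 counts and -4.09 (SE 1.26, edgeR adjusted p = 0.151). COL21A1 and the entry of KPNA2 passed the filter on low counts through the NT + TPL libraries alone, where they were high. Their differences are therefore a description and carry no support. ABHD18 was higher in TAM + TPL by 0.81 (SE 0.312, edgeR adjusted p = 0.232). None of the 5 passed the threshold, and a p that misses it does not show that the groups were alike.

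**Figure D3:**
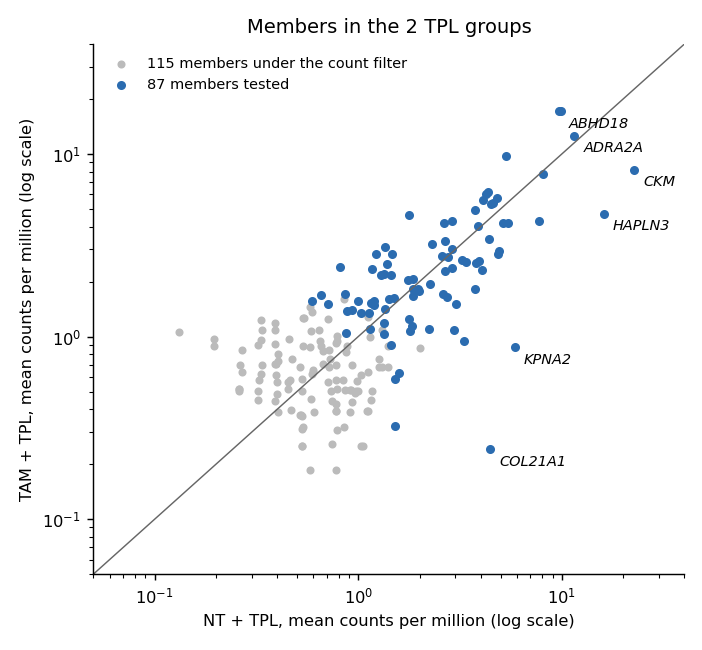
Mean TMM-scaled CPM of the 202 members in NT + TPL (x axis, log scale) and TAM + TPL (y axis, log scale), each over 2 libraries, with the line of equality. The 87 members tested (blue) scatter about the line, and 0 of them were called. CKM, COL21A1 and the entries of HAPLN3 and KPNA2 lie below it, and the entry of ABHD18 lies above it.

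The spread between replicates is given for members with enough reads. Among members with a mean of at least 10 counts in a group, the larger replicate was a median of 1.43 times the smaller in NT + TPL (74 members) and 1.5 times in TAM + TPL (79 members), and it was within 2 times in 55 and 65 of them. The widest was RASL12 in TAM + TPL, at 89.7 times.

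RNAPII occupancy was measured separately from the mRNAs. A start site (TSS) was taken as occupied when it lay inside a listed peak. The lists held 11222 peaks for NT, 8653 for NT + TPL, 11056 for TAM and 8464 for TAM + TPL. Their peak names show that each was named after 1 replicate and that the TAM list had another cutoff than the other 3, so the number of peaks in 1 list cannot be set directly against another, and the lists hold no heights. Of the 202 members, 193 were placed in the hg19 annotation, 176 of them whole genes.

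Most members had no listed RNAPII peak at their start, with or without TPL. The NT list covered the TSS of 15 members (7.77%), the NT + TPL list of 21 (10.9%), the TAM list of 18 (9.33%) and the TAM + TPL list of 16 (8.29%), beside 52.8%, 42.2%, 47.9% and 41.2% of all 20147 genes placed. In all, 169 of 193 (87.6%) had a peak in no list. Among whole genes the shares were 3.41%, 6.82%, 3.98% and 3.98%. Genes with 0 FPKM in the 4 DMSO libraries, of which there were 1761 including the whole-gene members, had 4.77%, 3.92%, 4.15% and 3.35%. The 17 entries were unlike them, with 9, 9, 11 and 9 occupied, 52.9% or more in each list. CKM, ADRA2A, CD79B, MKX, MRC1, DACT1 and CDKL2 had no listed peak in any condition.

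**Figure D4:**
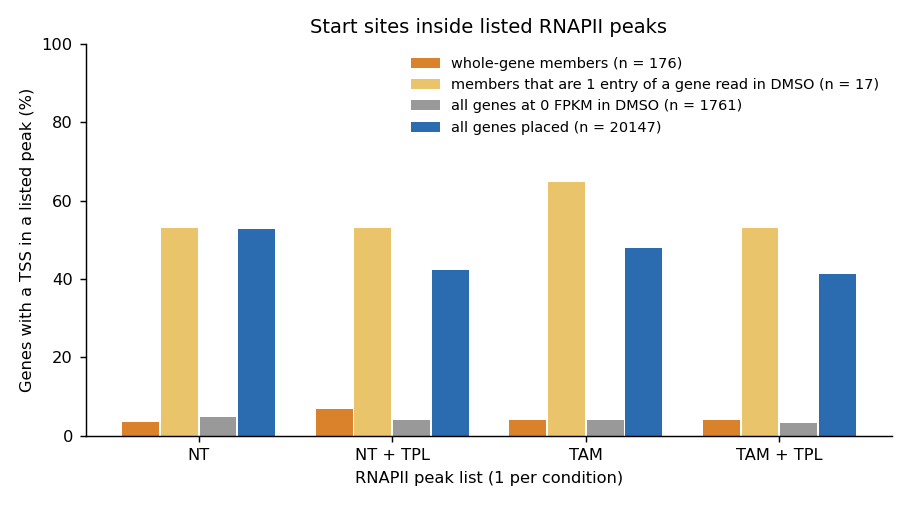
Share of genes (y axis, %) with a start site inside a listed RNAPII peak in each of the 4 conditions (x axis, 1 list each, so there are no error bars). Whole-gene members (orange) lie between 3.41% and 6.82%, close to all genes at 0 FPKM in DMSO (grey), while entries of genes read in DMSO (yellow) lie with or above all genes placed (blue).

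A peak in a TPL list and in neither DMSO list was found at 6 members (3.11%), beside 1.30% of all genes placed. Of these, 5 were whole genes, 2.84% of the 176 placed, and HAPLN3 was an entry of a gene read in DMSO. Among the 1761 genes at 0 FPKM in DMSO, which include these whole genes, 13 had such a peak (0.738%). The shares were not compared in a test. CRYBA1, a crystallin of the lens, had such a peak in both TPL lists, at chr17:27573821-27574363 in NT + TPL and chr17:27573525-27574341 in TAM + TPL (hg19), with 7, 2, 6 and 8 counts. ATP13A3-DT, a divergent lncRNA, also had one in both, at chr3:194207385-194207890 and chr3:194207267-194207903, with 2, 1, 8 and 6 counts. The other 4 had one in NT + TPL only.

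Those 4 were DNAJB5-DT at chr9:34989260-34989428, H2BC14 at chr6:27782106-27782835, HAPLN3 at chr15:89438630-89438798 (hg19) and SNX31, a sorting nexin with 23, 23, 19 and 4 counts. The H2BC14 peak also holds the start of the neighbouring histone gene H2AC14. All 4 had reads in the TAM + TPL libraries too, where no peak was listed, and DNAJB5-DT had more there (52 and 43 counts) than in NT + TPL (28 and 36). The 3 promoters below are those of these genes that were held, with capitals as above, at chr9:34989330-34989629 (minus), chr17:29246609-29246908 (plus) and chr6:27814772-27815071 (plus) in GRCh38.p14.
DNAJB5-DT: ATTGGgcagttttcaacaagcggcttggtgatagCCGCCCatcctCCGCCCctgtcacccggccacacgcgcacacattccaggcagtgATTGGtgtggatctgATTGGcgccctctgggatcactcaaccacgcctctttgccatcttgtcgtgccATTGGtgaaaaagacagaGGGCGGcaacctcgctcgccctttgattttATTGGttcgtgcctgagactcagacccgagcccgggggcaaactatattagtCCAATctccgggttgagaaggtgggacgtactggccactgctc
CRYBA1: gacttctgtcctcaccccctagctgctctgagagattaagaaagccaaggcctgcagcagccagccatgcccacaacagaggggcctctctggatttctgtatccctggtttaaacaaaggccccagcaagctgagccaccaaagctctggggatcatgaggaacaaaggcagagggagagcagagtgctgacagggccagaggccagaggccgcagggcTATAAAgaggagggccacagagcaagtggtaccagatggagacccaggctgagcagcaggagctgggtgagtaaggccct
H2BC14: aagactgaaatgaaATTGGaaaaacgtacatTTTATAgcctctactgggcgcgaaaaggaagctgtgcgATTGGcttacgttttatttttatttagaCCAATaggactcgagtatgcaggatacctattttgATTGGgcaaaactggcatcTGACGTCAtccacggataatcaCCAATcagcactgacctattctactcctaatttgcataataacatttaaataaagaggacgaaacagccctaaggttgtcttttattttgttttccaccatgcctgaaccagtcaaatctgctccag

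CRYBA1 had TATAAA at -30 and 1 CpG, while H2BC14 had 5 matches to CCAAT, TGACGTCA at -99 and TATAAA on the other strand at -219. DNAJB5-DT had 6 matches to CCAAT and 3 to GGGCGG.

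Members with a peak in both TPL lists mostly had peaks in the DMSO lists as well. Of 15 such members, 13 had a peak in all 4 lists. These were 8 entries of genes active in DMSO cells (SEPTIN11, ABHD18, RABL2A, COX20, DNAJB4, KPNA2, BLCAP and COQ10B) and 5 whole genes, H3C12, TEX46, H4C8, H2BC15 and IL5, the interleukin of eosinophils (6, 3, 6 and 1 counts). At least 1 annotated start of each of these 5 genes was thus inside a listed peak in DMSO cells whose libraries held no read of them. IL5 overlaps the expressed gene RAD50 on the opposite strand, and H3C12 overlaps the expressed gene H2AC17 on the same strand. Whether the peaks also hold the start of a neighbour was not tested, so they cannot be assigned to these 5 genes.

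Single-exon genes made up a larger share of the members than of all genes, a difference that was not tested. Of 190 members with an annotated canonical transcript, 23 had a single exon (12.1%), beside 4.81% of all genes placed and 9.38% of genes at 0 FPKM in DMSO. Chromosome 17 held 21 of 193 members (10.9%) and 5.77% of all genes placed. An expressed gene (at least 1 FPKM with DMSO) lay within 10000 bases upstream on the same strand of 14.5% of members, 13.9% of all genes and 7.33% of genes at 0 FPKM in DMSO. Overlap with an expressed gene on either strand was found for 24 members (12.4%), beside 28.7% of all genes and 14.2% of genes at 0 FPKM in DMSO. These shares were not tested. The sources used here do not say whether the libraries kept strand, so reads of overlapping genes cannot be told apart.

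Some members and the antisense genes named after them had reads together. Of 16 antisense rows named after a member, 4 were also listed with TPL only. These 4 were counted without a minimum count, but each also reaches a mean of 3. Of all 1033 rows with -AS, 10 had the pattern at that minimum, and the difference was not tested. FEZF1, a zinc finger factor of the forebrain, had 23, 50, 19 and 26 counts and FEZF1-AS1 had 20, 13, 14 and 9. DBH, which makes noradrenaline, had 5, 2, 6 and 2 counts, while DBH-AS1 had 19, 26, 15 and 12. The others were LHFPL3-AS1 and MAGEA8-AS1.

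Neighbouring members formed a few groups. Within 100000 bases of another member were 25 of the 193. Pairs were OIT3 and PLA2G12B (1725 bases apart) and DNTT and OPALIN (4656 bases) on chromosome 10, DRC1 and OTOF on chromosome 2 (491 bases), RXFP3 and SLC45A2 on chromosome 5 (5704 bases), and OR3A3 and OR1E2 on chromosome 17 (11336 bases). The histone genes H2BC14, H2BC15 and H3C12 lay with OR2B2 on chromosome 6.

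The largest group was a run of genes on chromosome 17, chosen for description after its values were seen. It held 5 members, GH2, GH1, CD79B, PRR29 and ICAM2, over 140 kb (chr17:61957575-62097994, hg19). ICAM2, an adhesion molecule of endothelium and leukocytes, was at 1.39, 3.37, 1.41 and 0.49 FPKM, and PRR29, which overlaps its end by 1712 bases, was at 1.52, 2.06, 1.92 and 0.92 FPKM. GH2, placental growth hormone, was at 0.18, 0.55, 0.65 and 0.06 FPKM.

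Genes between and beside them were also higher with TPL. From CSH2 to ERN1, a stretch of 259 kb, 9 genes were listed. The 5 members and CSH2 (0 with DMSO, 0.17 to 0.56 FPKM with TPL, under the minimum count) had the pattern of the rule. The ends of the stretch were set where genes with every TPL library above every DMSO library stopped. In the other 3, SCN4A, PRR29-AS1 and ERN1, every TPL library was above every DMSO library. SCN4A, the sodium channel of skeletal muscle, lies between CD79B and PRR29 and had 0.02 FPKM in 1 DMSO library, 0 in the other 3, and 1.83, 1.07, 1.45 and 0.87 with TPL. ERN1, the IRE1 sensor of the unfolded protein response, had 0.49, 0.98, 1.12 and 0.74 FPKM in the NT and TAM libraries and 9.43, 2.77, 10.59 and 11.99 with TPL. In the next listed gene on each side the groups overlapped, although the mean was higher with TPL. TCAM1P, next to CSH2, was at 1.58 to 2.07 FPKM with DMSO and 1.81 to 3.50 with TPL. SNHG25, next to ERN1, was at 1.42 to 5.83 and 4.62 to 46.81. The groups also overlapped in SMARCD2 (18.80 to 28.49 FPKM with DMSO and 16.86 to 34.58 with TPL) and TEX2 (11.56 to 21.30 and 7.58 to 13.70). The small nucleolar RNA gene SNORD104 was at 21.99 to 33.04 FPKM with DMSO and lower, at 2.98 to 8.83, with TPL.

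**Figure D5:**
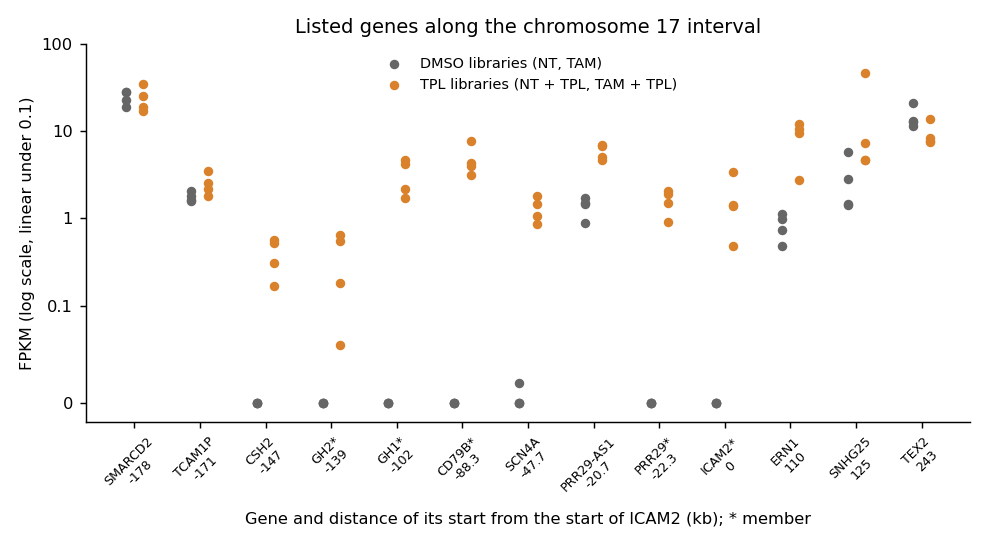
FPKM (y axis, log scale that is linear under 0.1) of the listed genes along chromosome 17 in their order on the chromosome (x axis, with the distance of each start from the start of ICAM2 in kb), with the 4 DMSO libraries in grey and the 4 TPL libraries in orange. From CSH2 to ERN1 all TPL points lie above all DMSO points, and at SMARCD2, TCAM1P, SNHG25 and TEX2 they overlap. Members carry an asterisk, and SNORD104, which is lower with TPL, is not drawn.

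Markers of breast epithelium were read in both treatments, but not all at like levels. All 12 were above 0 and 11 reached 1 FPKM with TPL, at sums between 8130 and 19649 FPKM with DMSO and between 4510 and 14721 with TPL. TP63, the factor of basal epithelial cells, was at 13.16 to 24.19 FPKM with DMSO and at 0.28 to 0.89 with TPL. KRT14, a basal keratin, was at 603.88 and 499.57 FPKM in NT and at 180.77 and 91.16 in NT + TPL. In TAM it was at 178.71 and 148.23, and in TAM + TPL at 123.75 and 103.58. KRT5, KRT17, KRT6A and KRT18 were also lower with TPL in both kinds of cell, while KRT8, ITGB4 and EPCAM were higher in both. KRT8 was at 297.51 and 254.67 FPKM in NT and at 439.55 and 387.94 in NT + TPL. CDH1, LAMA3 and ITGA6 did not move alike in NT and TAM cells. CDH5, the cadherin of endothelium, was at 0 although ICAM2 was a member, and the germ cell genes DAZL, PRM1 and TNP1 were at 0. The summed blood cell markers were 56.6 to 309 FPKM with DMSO and 99.0 to 490 with TPL, most of it CD68, and ITGAM was at 0.02 to 0.05 FPKM with DMSO and 5.2 to 9.82 with TPL. The muscle sum was 0.450 to 0.940 with DMSO and 14.3 to 32.5 with TPL. The endothelial sum was 0.780 to 1.33 and 0.800 to 2.45, the fibroblast sum 4.25 to 8.49 and 6.43 to 12.9, the neuron sum 41.9 to 178 and 40.6 to 82.3, and the germ cell sum 0.5 to 1.82 and 0.710 to 1.78. The part of other cell types in the members was not tested, and in these bulk cultures more cells with a transcript and more transcript per cell cannot be told apart.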

How the data were processed

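RNA-Seq of 8 libraries (4 groups, 2 replicates each) and 4 RNAPII peak lists were used. The deposited expected counts were made by the authors with Bowtie2 and RSEM from poly-A RNA, without normalization, and the deposited FPKM values come from the same step. The peak starts and ends deposited by the authors, with no score, came from ChIP reads on hg19 and MACS (1.4.2 per the labels), and the methods and the submitters' processing notes name different aligners. Positions are counted from 1.

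Rows absent from a file were taken as 0. Symbols were found for 21077 of 23604 rows from the gene ID and for 2384 from a transcript accession, leaving 143 without one. Expected counts were rounded and tested in edgeR 4.0.16 (R 4.3.3, TMM scaling, filterByExpr, quasi-likelihood, p adjusted after Benjamini and Hochberg) with 4 groups in 1 fit. Levels against DMSO are bounds, computed from TMM-scaled CPM against a floor of 3 counts per library. TSSs and gene positions came from GENCODE 44 placed on GRCh37. Alternatives used DESeq2 1.42.0 and limma 3.58.1, and plots matplotlib 3.10.9. Promoters are RefSeq sequences on GRCh38.p14, and coordinates of the 2 builds were not mixed.

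Members, gene lists and thresholds were chosen with earlier results of these data known. Named genes were the 12 whole-gene members highest in FPKM, the 10 highest in counts, the 5 highest entries, up to 4 per list, the 5 smallest p values, up to 10 members in peaks of both TPL lists, up to 5 in a TPL but no DMSO list and those at the threshold. The sixth member with a TPL peak, further members of a list or peak set of at most 5, OTP, ARL10, RASL12, marker genes, genes of the neighbouring groups, the antisense pairs and the chromosome 17 run were named after their values were seen. Depth was 7461309 to 8349448 counts per library. The edgeR steps were tested on simulated data. Some members and markers are not reported here by name.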

Additional observations from a re-analysis of the deposited data

How the results depend on the processing

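The number of members was 202. It was 72 at a mean count of at least 10 and 350 when up to 0.05 FPKM was allowed with DMSO, and leaving out 1 library gave between 216 and 272. The other alternatives to the rule (276 at a mean count of at least 1, 148 at 5, 191 with rows summed by symbol, 230 with all symbols kept) and the counts of whole genes (185 and 178) and of members in peaks stayed within 1.5 times of the values given.

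Members called higher with TPL, 2 in NT and 1 in TAM cells, are set beside the calls over all rows (206 and 143). At an adjusted p of 0.05 they were 78 and 79, beside 1658 and 1534 over all rows. They were 5 and 3 without a filter on low counts (263 and 197 over all rows), 20 and 19 with at least 10 counts in every TPL library (559 and 493), and 32 and 32 with DESeq2 (956 and 885). limma gave 15 and 11 on log2(FPKM + 1) (301 and 237) and 18 and 17 on log2(FPKM + 0.1) (252 and 175). A fit over the 2 groups compared gave 0 and 0 (0 and 76). Leaving out any 1 library of a contrast gave 0 members in both kinds of cell, between 0 and 0, with 0 to 74 rows called higher in NT and 0 in TAM cells. The cause was not tested.

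Over all rows, TAM + TPL against NT + TPL gave 101 calls. This was 727 at an adjusted p of 0.05, 671 with DESeq2, 236 with at least 10 counts, 164 with limma on log2(FPKM + 1), 155 without a filter, 0 in a fit over the 2 groups compared, and 6 to 73 with 1 library left out (6 and 7 without TAM + TPL replicates 1 and 2, 48 without NT + TPL replicate 1). Members called stayed at 0 under all 16 alternatives. Log2 differences kept their sign for the 5 members with the smallest p, between -1.98 and -1.39 for HAPLN3 (adjusted p 0.00702 to 0.32), between -1.94 and -1.06 for CKM (0.0208 to 0.392), between -3.09 and -1.29 for KPNA2 (0.0132 to 0.374), between -8.13 and -1.38 for COL21A1 (0.00269 to 0.679) and between 0.57 and 0.94 for ABHD18 (0.0696 to 0.592).

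Replicate numbers share nothing known between groups, and deviations of same-numbered libraries correlated at 0.0439 (TAM + TPL and NT + TPL), -0.135 (NT and NT + TPL) and -0.0471 (TAM and TAM + TPL). A replicate block gave 30 calls over all rows for TAM + TPL against NT + TPL, with 0 members, and 0 members called higher with TPL in NT and 0 in TAM cells, where it also called 0 of all rows. With the numbers of NT and NT + TPL crossed, a choice made after seeing the data, the replicate block called 34 rows higher and 64 lower and 0 members.

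Most members rest on fewer than 10 counts a library, and 2 libraries a group limit every test.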
